A study of Mus musculus with 8 samples.

Results

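Oligodendrocytes are the glial cells that wrap axons of the central nervous system in myelin, and 38 genes that mark their lineage are described here in 4 nuclei of the mouse hypothalamus. The genes were chosen by name: 2 of precursors (*Pdgfra* and *Cspg4*), 3 of committed, newly forming cells (*Gpr17*, *Bcas1*, and *Enpp6*), 5 transcription factors (*Sox10*, *Olig1*, *Olig2*, *Myrf*, and *Nkx6-2*), and 28 of mature, myelinating cells. All probes whose RefSeq accession belongs to these genes were taken, which gave 49 of the 55681 probes of the array, and all 38, of 20284 genes named on the array, had at least 1 probe.

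RNA came from the arcuate nucleus (Arc), ventromedial hypothalamus (VMH), dorsomedial hypothalamus (DMH), and lateral hypothalamus (LH) of untreated C57BL/6 females (C57BL/6J in the study's methods), 3 months old, cut out with a laser from brain sections of 2 mice. Each nucleus was measured on 2 arrays of 1 color, named Arc1 and Arc2 and so on, and all 8 lay on 1 slide. By the array positions recorded with the files, the number of an array is also its row on the slide. Which arrays share a mouse is not stated, so p-values measure only the spread between these samples. Values are scaled signals, meaning the deposited signal with every array brought to a common 75th percentile, and a probe was measured on an array when it was well above background there.

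Myelin is made in steps. Precursor cells divide under platelet-derived growth factor, committed cells leave the cycle and switch on *Myrf*, and mature cells then produce the membrane proteins and the galactolipids of the sheath. In the hypothalamus, the LH holds the myelinated fibers of the medial forebrain bundle, whereas the medial nuclei are poor in myelin. In bulk samples, fewer cells of a type and less RNA per cell cannot be told apart.

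Promoter windows from RefSeq (GRCm38.p6), from 250 bases before to 50 after a transcription start, were found for 27 of the 38 genes, and 5 are shown, since the members that moved together and those that did not can then be read side by side. *Pdgfra* stands for the precursors, *Mag*, *Opalin*, and *Klk6* for mature genes high in the LH, and *Gamt* for the mature gene with another pattern. Capitals mark the letters ACAAAG, a core of the sites that SOX proteins bind, and CTGGCAC or CTGGTAC, the motif of MYRF, on either strand.
Pdgfra, chr5:75152001-75152300, plus strand: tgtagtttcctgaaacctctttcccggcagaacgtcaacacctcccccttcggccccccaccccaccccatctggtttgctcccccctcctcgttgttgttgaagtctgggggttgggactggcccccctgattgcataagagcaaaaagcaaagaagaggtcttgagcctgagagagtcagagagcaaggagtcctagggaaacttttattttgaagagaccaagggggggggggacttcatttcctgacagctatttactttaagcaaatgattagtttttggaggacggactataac
Mag, chr7:30914814-30915113, minus strand: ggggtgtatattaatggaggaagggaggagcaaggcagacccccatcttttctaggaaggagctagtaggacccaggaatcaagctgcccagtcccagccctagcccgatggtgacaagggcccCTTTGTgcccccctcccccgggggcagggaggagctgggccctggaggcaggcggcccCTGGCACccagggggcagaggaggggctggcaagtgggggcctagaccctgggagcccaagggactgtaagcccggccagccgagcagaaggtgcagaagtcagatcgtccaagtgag
Opalin, chr19:41077064-41077363, minus strand: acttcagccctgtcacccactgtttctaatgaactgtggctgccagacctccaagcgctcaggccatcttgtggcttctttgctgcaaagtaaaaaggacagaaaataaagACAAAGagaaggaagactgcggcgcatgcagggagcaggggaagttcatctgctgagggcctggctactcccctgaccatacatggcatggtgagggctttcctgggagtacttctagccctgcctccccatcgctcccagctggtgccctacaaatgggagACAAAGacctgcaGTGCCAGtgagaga
Klk6, chr7:43824294-43824593, plus strand: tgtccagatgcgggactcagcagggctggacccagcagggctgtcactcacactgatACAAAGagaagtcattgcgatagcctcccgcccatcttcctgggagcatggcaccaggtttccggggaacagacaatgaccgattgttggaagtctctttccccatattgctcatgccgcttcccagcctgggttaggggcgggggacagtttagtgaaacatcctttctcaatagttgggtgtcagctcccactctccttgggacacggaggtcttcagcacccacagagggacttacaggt
Gamt, chr10:80260963-80261262, minus strand: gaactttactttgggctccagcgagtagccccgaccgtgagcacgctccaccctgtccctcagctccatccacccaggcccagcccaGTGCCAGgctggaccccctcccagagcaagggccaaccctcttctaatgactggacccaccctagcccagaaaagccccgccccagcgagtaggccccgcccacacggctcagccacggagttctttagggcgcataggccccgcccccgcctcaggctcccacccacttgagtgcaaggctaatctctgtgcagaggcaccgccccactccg

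The *Pdgfra* window held none of these letters, *Mag* and *Opalin* held both motifs, *Klk6* held the SOX core, and *Gamt* held the MYRF motif. Where a gene has several windows, that with the most matches is shown, whereas *Pdgfra*, *Opalin*, and *Gamt* have 1 window each. Of the 3 windows of *Mag*, 2 held the SOX core and 2 the MYRF motif. Of the 2 windows of *Klk6*, 1 held the SOX core. Among the 35 windows of 22 mature genes, 13 windows of 10 genes held the SOX core (37.1%) and 9 windows of 8 genes held the MYRF motif (25.7%). Over all 32851 windows of the table, the shares were 18.7% and 7.1%. None of the 5 windows of precursor, committed, and transcription factor genes held either motif. These windows belong to *Pdgfra*, *Cspg4*, *Enpp6*, *Olig2*, and *Nkx6-2*, and the other genes of these stages had none. At the shares over all windows, 5 windows are too few to show a contrast with the mature genes. Windows of 1 gene can overlap, and a match is a description of letters only.

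Of the 49 member probes, 47 passed the filter of being measured on both arrays of at least 1 nucleus. The arrays of 1 nucleus correlated at 0.981 for the Arc, 0.978 for the VMH, and 0.971 for the DMH, but at 0.938 for the LH, where LH2 was closer to DMH2 (0.954). LH1 carried 364 spots marked as outliers against 126 to 161 on the other arrays. Marker genes of the Arc (*Agrp*), the VMH (*Nr5a1*), and the DMH (*Npvf*) were highest in the nucleus named by the labels. The LH marker *Hcrt*, the orexin precursor, had scaled signals of 106000 and 116700 in the LH and also 55940 and 51280 in the DMH, against 188.1 to 684.4 elsewhere. The LH and the DMH samples thus both carried orexin RNA. *Pmch*, the precursor of melanin-concentrating hormone and also a marker of the LH, had 17650 and 17000 in the LH, 16250 and 11630 in the DMH, 3938 and 3140 in the VMH, and 97.53 and 71.06 in the Arc. RNA of LH markers was thus present in the DMH samples and, for *Pmch*, in the VMH samples, and its part in the comparisons below was not tested.

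The genes of mature myelin were several-fold above the other nuclei in the LH. Of the 28, 19 were lowest on both Arc arrays (background 10.9% of all tested probes). Some of these, such as *S1pr5*, *Ugt8a*, and *Gal3st1*, were not measured on either Arc array. For each gene, 1 probe, that with the highest mean signal, stands for it in the counts by gene. Set against the mean of the other 3 nuclei, the LH was higher in 26 of the 28 mature genes with limma's moderated test at an adjusted p under 0.05, and lower in none. Their median log2 difference was 2.56, a 5.9-fold ratio, and 2.51 with signals not above background raised to the lowest measured one. It was 1.96 with normexp background correction and 1.99 over the 19 genes measured on all 8 arrays. Of the 3 committed genes, 2 were higher, of the 5 transcription factors 4, and of the 2 precursor genes none. Over the 47 tested probes, 37 were higher and none lower (1, a probe of *Mbp*, was lower at an unadjusted p under 0.05), and the background was 3.89% of all 28896 tested probes higher and 2.45% lower. Of the 37, 5 were measured in the LH alone, so that they passed the filter through the LH and had to be higher there. The median over the tested member probes was 2.33 and over all tested probes -0.02.

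**Figure D1:**
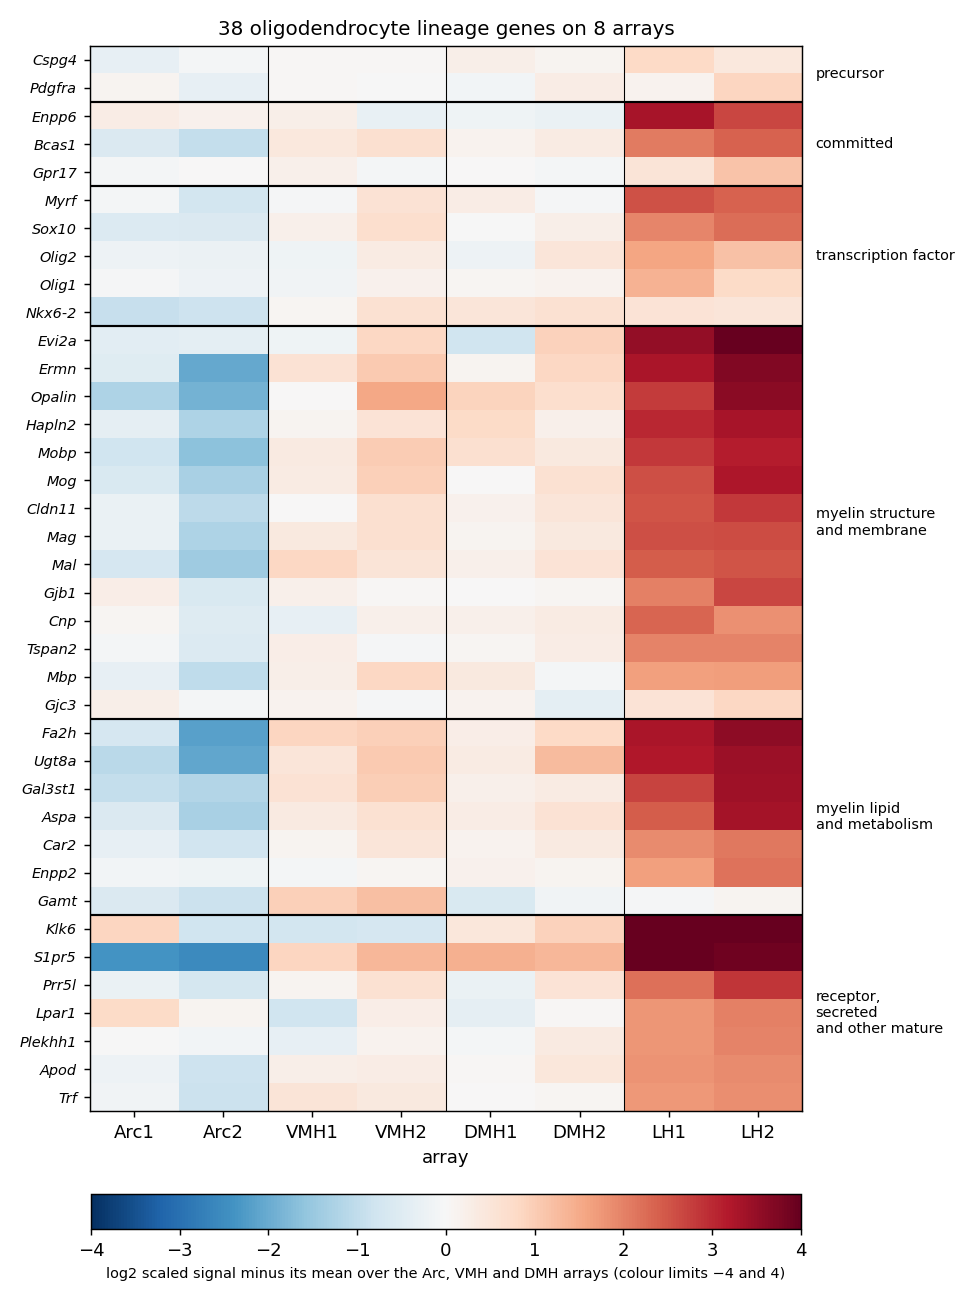
Log2 scaled signal of each of the 38 genes (rows, grouped by role) on each of the 8 arrays (columns), as the difference from its mean over the Arc, VMH, and DMH arrays, with colors that end at -4 and 4. The LH columns are red for nearly all mature genes, *Gamt* is red in the VMH only, and the precursor genes are pale throughout.

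The 4 nuclei differed in 38 of the 47 member probes by limma's F-test, where the background was 8.34% of all tested probes. The probes measured in the LH alone, which passed the filter through the LH, are among these 38 and among the 41 and 27 below. Both LH arrays lay above the other 6 arrays for 41 member probes (background 12.1%), and both Arc arrays lay below the other 6 for 30 (background 10.9%). In 27 member probes, the LH was higher than each of the other nuclei in separate tests (background 0.484%). That last count was 26 without LH1 and 26 without LH2, but 0 without DMH1 and 4 without DMH2, VMH1, or VMH2, 12 without Arc2, and 15 without Arc1. With the array number, and so the row of the slide, as a replicate block, it was 13. The count was 6 without scaling, 9 without the filter on dim probes, and 0 by the methods' test. That test was analysis of variance with Tukey-Kramer comparisons, which the study's statistics section names for several groups, with the same adjustment. The study reports no such test of the arrays and chose genes by ratios of signals between nuclei. By the F-test of that analysis, the nuclei differed in 4 member probes. The count against the mean of the other nuclei was 37 without LH1, 37 without LH2, and at least 34 without any other array.

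By stage, the precursor genes had the smallest median difference (0.56). *Pdgfra*, the receptor for the growth factor that keeps precursors dividing, had scaled signals of 384.8 and 280.6 in the Arc, 367.2 and 348.4 in the VMH, 332.9 and 441.7 in the DMH, and 393 and 650 in the LH. Only LH2 stood above the rest, and the LH difference was 0.51 ± 0.25 on the log2 scale (SE, adjusted p = 0.265). *Cspg4*, the proteoglycan NG2 on the surface of precursors, had 386.1 and 461.4 in the Arc, 504.1 and 500.3 in the VMH, 574.9 and 522.4 in the DMH, and 854.2 and 656.2 in the LH. Both LH arrays were above all others, with a difference of 0.62 ± 0.18 (adjusted p = 0.0942). With limma, 0 of these 2 genes passed, and 1, *Cspg4*, had an unadjusted p under 0.05. By the F-test without moderation that the study's statistics section names for several groups, 0 passed after adjustment and 1 had an unadjusted p under 0.05.

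Of 10 other precursor genes, 9 had a tested probe. With limma, 0 of their 12 tested probes differed in the LH from the other nuclei together, 5 were higher at an unadjusted p under 0.05, and the median log2 difference was 0.42. By the F-test without moderation over the 4 nuclei, 1 of the 12 passed after adjustment. A probe of *Vcan* was measured on the LH arrays alone, at 203.3 and 176.7. Among probes measured on all arrays, *Matn4* (0.75, adjusted p = 0.0514) and *Nkx2-2* (0.64, adjusted p = 0.0752) had the largest differences. In pairs, *Nkx2-2* exceeded the Arc in the VMH (1.86, adjusted p = 0.00471) and in the LH (1.65, adjusted p = 0.0055), with the VMH arrays above the LH arrays, and *Matn4* exceeded the VMH in the LH (1.17, adjusted p = 0.0267). *Ptprz1*, a receptor phosphatase of precursors and astrocytes, differed by -0.20 and -0.10 in its 2 probes. *Neu4*, a sialidase of precursors, was measured on none of the 8 arrays. These values do not show that precursor RNA was equal between the nuclei. The difference between the stages was not tested.

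The committed genes split. *Gpr17*, a receptor made for a short time as precursors commit, had 1597 and 1713 in the Arc, 1929 and 1578 in the VMH, 1703 and 1588 in the DMH, and 2395 and 3725 in the LH. The first 6 arrays overlapped and both LH arrays were above them, with a difference of 0.83 ± 0.21 (adjusted p = 0.0686), which was called without LH1 (1.15) but not without LH2. It was also called with normexp background correction (adjusted p = 0.043), with the filter on all 8 arrays (0.0404), and with trended and robust moderation (0.0336). *Bcas1*, which marks cells that begin to myelinate, had 5582 and 4341 in the Arc, 11300 and 12980 in the VMH, 9250 and 10500 in the DMH, and 35220 and 43050 in the LH. Its nuclei did not overlap, the LH difference was 2.22 ± 0.19 (adjusted p = 0.00317), and it was also higher in the VMH than in the Arc (log2 difference 1.30, adjusted p = 0.0222).

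*Enpp6*, a choline phosphodiesterase of newly forming oligodendrocytes, was measured on the LH arrays alone, at 225.2 and 147.6, and was 18.63 to 28.59 and not well above background elsewhere. Because the lowest measured signal of an array was 79.25 to 132.1, its ratio was at least 1.61-fold to the Arc, 1.75-fold to the VMH, and 1.95-fold to the DMH. With the dim signals raised to that floor, *Enpp6* was not called, and the median of the committed genes fell from 2.22 to 0.83. Another probe of *Enpp6* was measured on no array.

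**Figure D2:**
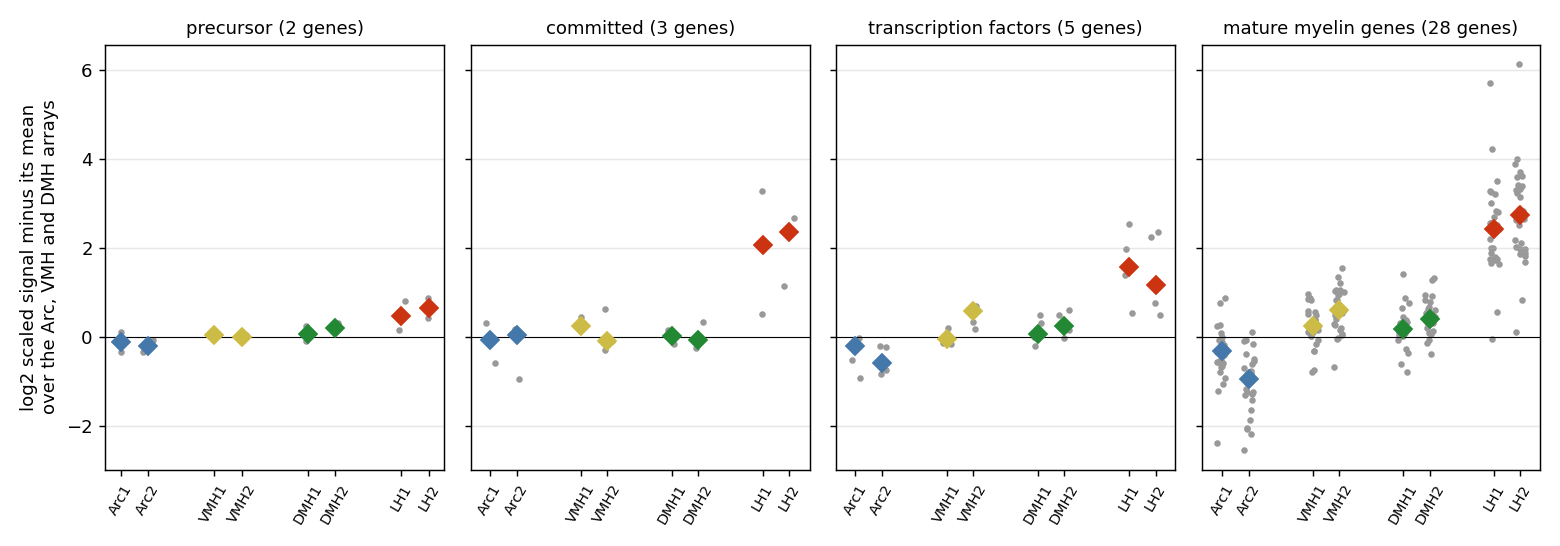
Log2 scaled signal relative to the mean of the Arc, VMH, and DMH arrays for each array, in 4 panels by stage, with small grey points for genes and diamonds for the median. The precursor medians stay between -0.21 and 0.65, whereas the mature medians run from -0.94 on Arc2 to 2.75 on LH2.

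Of the transcription factors, 4 were higher in the LH. *Sox10*, needed throughout the lineage, had 1402 and 1355 in the Arc, 2340 and 3260 in the VMH, 2028 and 2391 in the DMH, and 7921 and 9589 in the LH, a difference of 2.10 ± 0.20 (adjusted p = 0.00375). *Myrf*, which switches on myelin genes, had 345.8 and 216.6 in the Arc, 350.3 and 543.3 in the VMH, 448.8 and 354.5 in the DMH, and 2109 and 1860 in the LH, a difference of 2.45 ± 0.26 (adjusted p = 0.00544). For both genes, the LH arrays were above and the Arc arrays below all others.

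*Olig1* and *Olig2*, basic helix-loop-helix factors present from precursor to mature cell, differed less. *Olig1* lay between 3121 and 4060 on the first 6 arrays and was 9424 on LH1 and 6089 on LH2, a difference of 1.08 ± 0.22 (adjusted p = 0.0351). *Olig2* lay between 1104 and 1828 on the first 6 arrays and was 3885 on LH1 and 2932 on LH2, a difference of 1.37 ± 0.25 (adjusted p = 0.0269). For both, LH1 was the higher array, unlike most mature genes. *Olig1* was called with all arrays and without LH2, but not without any one of the other 7, where its difference was between 0.76 and 1.13. *Olig2* was not called without Arc1 (1.38), Arc2 (1.36), VMH1 (1.29), DMH1 (1.25), or LH1 (1.17).

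*Nkx6-2*, a homeodomain factor of oligodendrocytes and of some neurons, had another pattern. It had 162.7 and 174.7 in the Arc, 331.8 and 471.6 in the VMH, 433.7 and 472.7 in the DMH, and 450.2 and 436.2 in the LH. The LH lay within the range of the VMH and DMH, and the difference from the mean of the others was 0.51 ± 0.19 (adjusted p = 0.154). The Arc was lower than the LH (log2 difference 1.39, adjusted p = 0.0138) and the VMH (1.23, adjusted p = 0.027).

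Of the 14 structural and membrane genes, 13 were higher in the LH, with a median log2 difference of 2.64. *Mag*, the adhesion protein of the inner myelin membrane, had 5181 and 2650 in the Arc, 8167 and 9730 in the VMH, 6677 and 8216 in the DMH, and 37110 and 38410 in the LH. The LH arrays were close to each other and far above the rest, a difference of 2.59 ± 0.27 (adjusted p = 0.00498). *Mog*, on the outermost layer of the sheath, had 1049 and 645.8 in the Arc, 2001 and 3058 in the VMH, 1603 and 2436 in the DMH, and 9432 and 14890 in the LH, a difference of 2.90 ± 0.32 (adjusted p = 0.00557). *Mobp*, a small basic protein of compact myelin, had 660.6 and 364.1 in the Arc, 1474 and 2320 in the VMH, 1780 and 1509 in the DMH, and 8046 and 10050 in the LH, a difference of 2.98 ± 0.29 (adjusted p = 0.0042).

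For *Mal*, a raft proteolipid, the signals were 1452 and 857.7 in the Arc, 4108 and 3333 in the VMH, 2669 and 3354 in the DMH, and 12410 and 13120 in the LH, a difference of 2.46 ± 0.24 (adjusted p = 0.0042). *Cldn11*, the tight junction claudin between myelin layers, had 1106 and 648.4 in the Arc, 1348 and 2107 in the VMH, 1513 and 1863 in the DMH, and 7661 and 9551 in the LH, a difference of 2.68 ± 0.28 (adjusted p = 0.00505). *Cnp*, the cyclic nucleotide phosphodiesterase of non-compact myelin, had 1243 and 834.3 in the Arc, 951.3 and 1364 in the VMH, 1371 and 1484 in the DMH, and 5975 and 4188 in the LH, a difference of 2.08 ± 0.25 (adjusted p = 0.00716). In *Cnp*, the Arc overlapped the VMH, and the Arc was not below it as in *Mal* and *Mog*.

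*Evi2a*, a membrane protein gene inside an intron of *Nf1*, was measured only in the LH, at 493 and 689.5, and was at least 5.15-fold higher there than in the Arc, 5.61-fold than in the VMH, and 6.23-fold than in the DMH. *Ermn*, a cytoskeletal protein of myelinating cells, had 318.2 on Arc1, 664.4 and 931.6 in the VMH, 483.9 and 796.5 in the DMH, and 4281 and 5881 in the LH. On Arc2 it was not well above background. Its difference was 3.48 ± 0.43 (adjusted p = 0.00756). At the other end, *Gjc3*, a connexin of oligodendrocytes, had 335.5 and 269.6 in the Arc, 314.7 and 273.5 in the VMH, 314 and 218.7 in the DMH, and 418.9 and 503.3 in the LH, a difference of 0.69 ± 0.21 (adjusted p = 0.105). Its LH arrays were above the other 6, but the difference did not pass the test.

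The other structural genes, *Opalin*, *Tspan2*, *Hapln2*, and *Gjb1*, were all higher in the LH, with log2 differences of 1.99 in *Tspan2* and 2.33 in *Gjb1*. *Opalin*, a glycoprotein of the paranodal loops, was not measured in the Arc, and the LH was at least 8.19-fold above it. *Hapln2*, a link protein of the matrix at nodes of Ranvier, was not measured in the Arc either, with a bound of 11.8-fold.

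**Figure D3:**
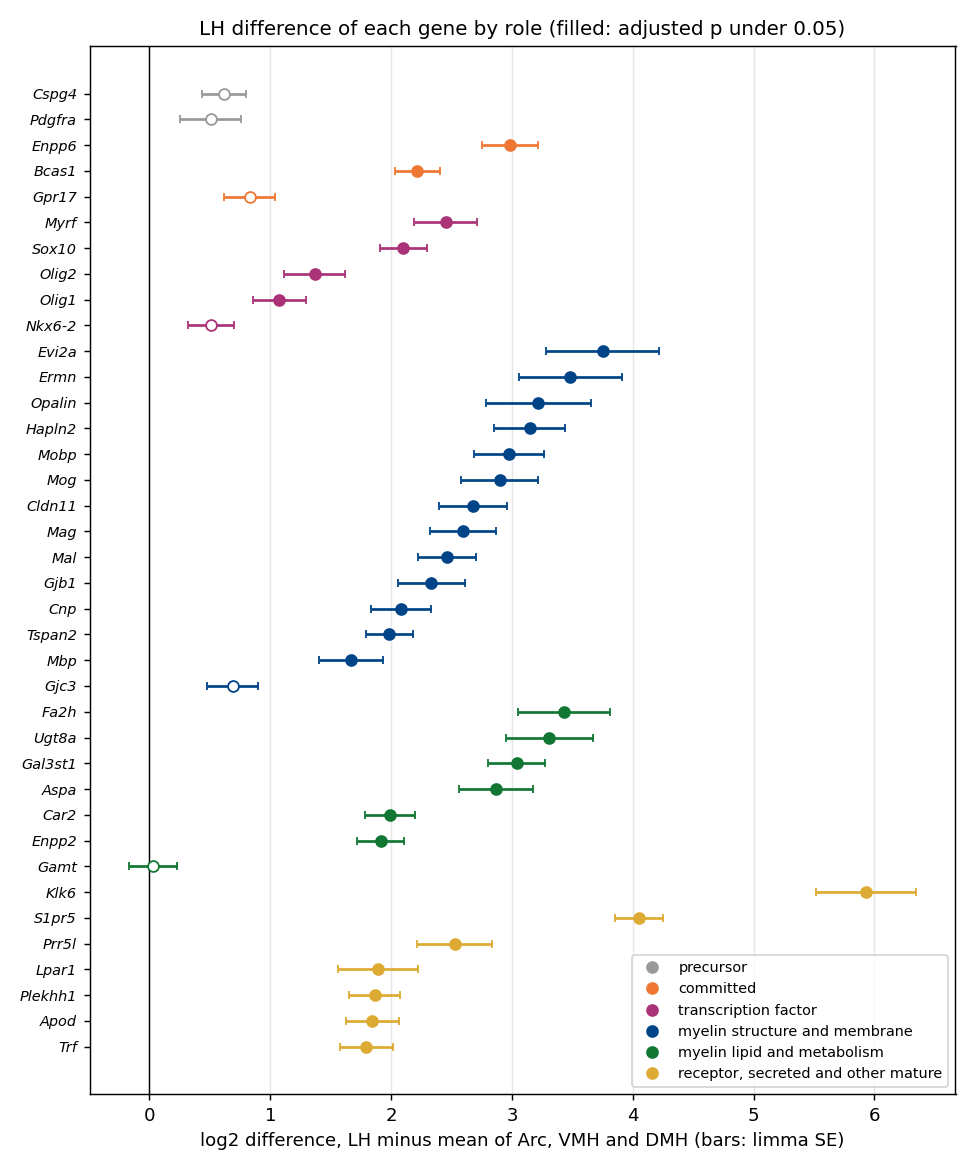
Log2 difference of the LH from the average of the Arc, VMH, and DMH for the representative probe of each of the 38 genes, with limma's standard error as the bar, colored by role and filled where the adjusted p is under 0.05. Open points are the 2 precursor genes, *Gpr17*, *Nkx6-2*, *Gjc3*, and *Gamt*, and the largest value is 5.93 for *Klk6*, whose signals outside the LH, like those of *Enpp6* and *Evi2a*, are not above background, so that these points depend on the dim values.

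Of the 7 lipid and metabolic genes, 6 were higher in the LH, with a median log2 difference of 2.87. The 3 enzymes that make the galactolipids of myelin were all among them. *Fa2h*, which adds a hydroxyl group to the fatty acids, had 215.9 on Arc1, 629.4 and 672.7 in the VMH, 420.9 and 600.8 in the DMH, and 3362 and 4165 in the LH, a difference of 3.43 ± 0.38 (adjusted p = 0.00583), and was not well above background on Arc2. *Ugt8a*, which makes galactosylceramide, exceeded the Arc, where it was not measured, by at least 10.2-fold in the LH, and *Gal3st1*, which adds the sulfate, at least 8.51-fold. *Aspa*, which cleaves N-acetylaspartate, *Car2*, a carbonic anhydrase, and *Enpp2*, the enzyme autotaxin, differed from the mean of the other nuclei by 2.87, 1.99, and 1.91.

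*Gamt*, the last enzyme of creatine synthesis, was highest in the VMH. Its signals were 4168 and 3431 in the Arc, 12040 and 14270 in the VMH, 4054 and 5633 in the DMH, and 5989 and 6660 in the LH. The VMH arrays did not overlap those of any other nucleus, and the VMH was higher than the Arc by 1.79 (adjusted p = 0.00903). The LH difference from the mean of the others was 0.03 ± 0.20 (adjusted p = 0.939), and it was -0.06 without scaling and -0.05 under quantile normalization. Its other probe had 1310 and 1137 in the Arc, 9322 and 9898 in the VMH, 1868 and 2070 in the DMH, and 4008 and 4471 in the LH. By that probe, the LH was lower than the VMH by 1.18 on the log2 scale (adjusted p = 0.0215), the 1 member probe of 47 called in this direction (background 2.24%). Both probes were lower in the DMH than in the VMH, and these were the 2 member probes called so (background 1.1%). The count of member probes that differed between these nuclei was 1 without any one of the arrays outside the LH.

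All 7 of the receptors, secreted proteins, and other mature genes were higher in the LH. *Klk6*, a secreted serine protease of oligodendrocytes, was measured in the LH alone, at 3247 and 4339, and lay between 35.38 and 116.7 elsewhere. The LH was at least 31.4-fold above the Arc, 36.1-fold above the VMH, and 36.1-fold above the DMH. *S1pr5*, a receptor for sphingosine 1-phosphate, had 294.2 and 408.8 in the VMH, 430.7 and 405.6 in the DMH, and 2998 and 2379 in the LH, and was not measured in the Arc (30.63 and 27.45). Its ratio to the Arc was at least 23.6-fold for the LH, 3.07-fold for the VMH, and 3.69-fold for the DMH.

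*Trf*, the iron carrier transferrin, was read by 2 probes. The brighter had 11680 and 7137 in the Arc, 18330 and 17010 in the VMH, 13180 and 13750 in the DMH, and 43030 and 46950 in the LH, a difference of 1.80 ± 0.22 (adjusted p = 0.00716), and the other differed by 2.63. *Lpar1*, a receptor for the lysophosphatidic acid that autotaxin makes, was not lowest in the Arc, and was singled out after its values were seen. It had 1644 and 1049 in the Arc, 558.4 and 1175 in the VMH, 754.8 and 1015 in the DMH, and 3287 and 3984 in the LH, a difference of 1.89 ± 0.33 (adjusted p = 0.0227). *Apod*, a lipid-binding lipocalin, *Plekhh1*, and *Prr5l*, a partner of mTOR complex 2, differed by 1.84, 1.86, and 2.53.

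**Figure D4:**
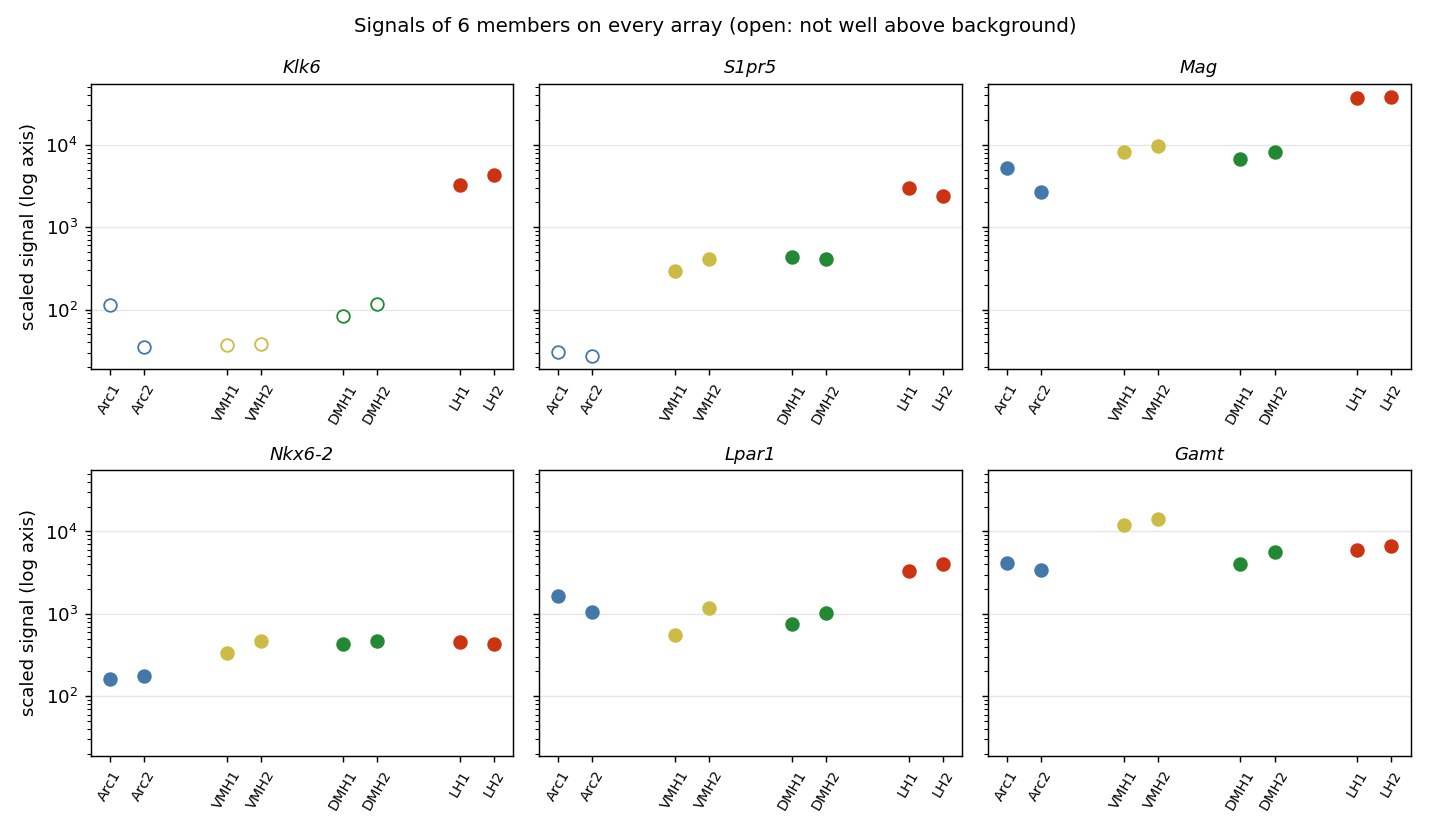
Scaled signal (log axis, the same in all panels) of *Klk6*, *S1pr5*, *Mag*, *Nkx6-2*, *Lpar1*, and *Gamt* on each array, with open points where the probe was not well above background. *Klk6* is measured in the LH only, *S1pr5* in all nuclei but the Arc, *Nkx6-2* is low in the Arc only, and *Gamt* is highest in the VMH.

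Pairs of nuclei were then compared. Between the LH and the Arc, 39 member probes were higher in the LH (background 6.02%) and 1 was lower, a probe of *Mbp* (background 3.33%). Between the LH and the VMH, 34 were higher (background 3.04%), and between the LH and the DMH, 27 (background 0.664%). By gene, the median difference among the mature genes was 3.34 from the Arc, 2.19 from the VMH, and 2.35 from the DMH. With dim signals raised to each array's lowest measured signal, these medians were 3.03, 2.19, and 2.35. Over the genes measured on all arrays of both nuclei, they were 2.35 (19 genes), 2.16 (25 genes), and 2.31 (26 genes). These comparisons share the LH arrays, and the probes measured in the LH alone are counted as higher in each. By the methods' test, 1 member probe was called for the LH and Arc and 0 for the LH and VMH. The count for the LH and VMH, 35 in either direction, was 6 without VMH1 and 16 without VMH2. The count between the LH and the DMH was 0 without DMH1, 4 without DMH2, VMH1, or VMH2, 12 without Arc2, and 15 without Arc1. It was 6 without scaling, 9 without the filter on dim probes, 13 with the replicate block, 3 when only these nuclei were fitted, and 0 by the methods' test.

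Among the other nuclei, 10 member probes were higher in the VMH than in the Arc (background 3.52%), and these belonged to 9 genes, 7 of them mature. *S1pr5* had at least a 3.07-fold ratio, *Mal* a log2 difference of 1.73 (adjusted p = 0.0199), and *Mobp* 1.92 (adjusted p = 0.0268). In the DMH, 2 member probes were higher than in the Arc (background 0.727%), those of *S1pr5* and *Nkx6-2*. The count for the VMH and Arc was 2 without Arc2 or VMH2, 3 without VMH1, and 6 without DMH1 or DMH2. The count for the DMH and Arc was 1 without Arc2 or any VMH or DMH array, and 4 without LH1.

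Within a nucleus, the arrays also differed in these genes. Of the 19 mature genes measured on both Arc arrays, 19 were higher on Arc1 than on Arc2, as were 25 of the 28 genes of all stages measured on both, where 44.7% of all tested probes were higher on Arc1. On LH2, 25 of the 28 mature genes and 29 of the 38 were higher than on LH1, where the share of all tested probes was 48.6%. The median mature gene was at -0.33 on Arc1 and -0.94 on Arc2, relative to the 6 arrays outside the LH, and at 2.42 on LH1 and 2.75 on LH2. The gap between the LH arrays and the nearest other array, 0.61 on VMH2, was wider than either of these gaps within a nucleus.

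More than 1 probe was present for 9 genes, and 5 of them met the rule for disagreement, that is LH differences of opposite sign or more than 1 apart on the log2 scale, or 1 probe measured and another on no array. In *Mbp*, the basic protein that compacts the sheath, the probes had LH differences of opposite sign. Probe A_52_P329451 had 7312 and 4534 in the Arc, 10840 and 16300 in the VMH, 12000 and 8794 in the DMH, and 28910 and 29590 in the LH, a difference of 1.66 ± 0.27 (adjusted p = 0.0167). Probe A_52_P604195 had 2909 and 3538 in the Arc, 4881 and 3766 in the VMH, 3006 and 2663 in the DMH, and 1930 and 2997 in the LH, a difference of -0.49 ± 0.23 (adjusted p = 0.233). Probe A_55_P1992160 had 2591 and 3470 in the Arc, 2360 and 3064 in the VMH, 2276 and 1497 in the DMH, and 1328 and 1188 in the LH, a difference of -0.97 ± 0.24 (adjusted p = 0.0591). Both LH arrays were above all others by the first probe and below all others by the last, which was lower in the LH than in the Arc by 1.26 on the log2 scale (adjusted p = 0.0408). The *Mbp* locus also makes longer transcripts known as golli, which are found outside oligodendrocytes as well. Which transcripts each probe reads was not tested.

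For *Mobp* and *Prr5l*, the rule was met only through signals not above background. A probe of *Mobp* (A_55_P1958793) was measured only in the LH, at 783.3 and 605.8. Its bounds were 6.09-fold to the Arc, 6.63-fold to the VMH, and 7.36-fold to the DMH. The remaining *Mobp* probes were measured on all arrays and differed by 2.98 and 3.07. Their ratios were 18.3 and 17.5 to the Arc, 4.86 and 4.58 to the VMH, and 5.49 and 7.36 to the DMH. A probe of *Prr5l* (A_55_P2072631) was likewise measured only in the LH, at 484.4 and 677.1. Its bounds were 5.06-fold to the Arc, 5.51-fold to the VMH, and 6.12-fold to the DMH. The other *Prr5l* probe was measured on all 8 arrays, with ratios of 8.1, 4.51, and 5.24. In both genes, the bound to the VMH was thus above the ratios of the other probes, and the bound to the Arc below them. For *Ermn*, the LH differences of the probes were 3.48 and 2.46, both with Arc signals that were not above background on 1 or both arrays. The probes of *Tspan2*, *Gamt*, *Trf*, and *Apod* did not meet the rule, although the other probe of *Tspan2* was not called (1.40 ± 0.32, adjusted p = 0.0518) and the other of *Apod* was measured on LH1 alone.

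**Figure D5:**
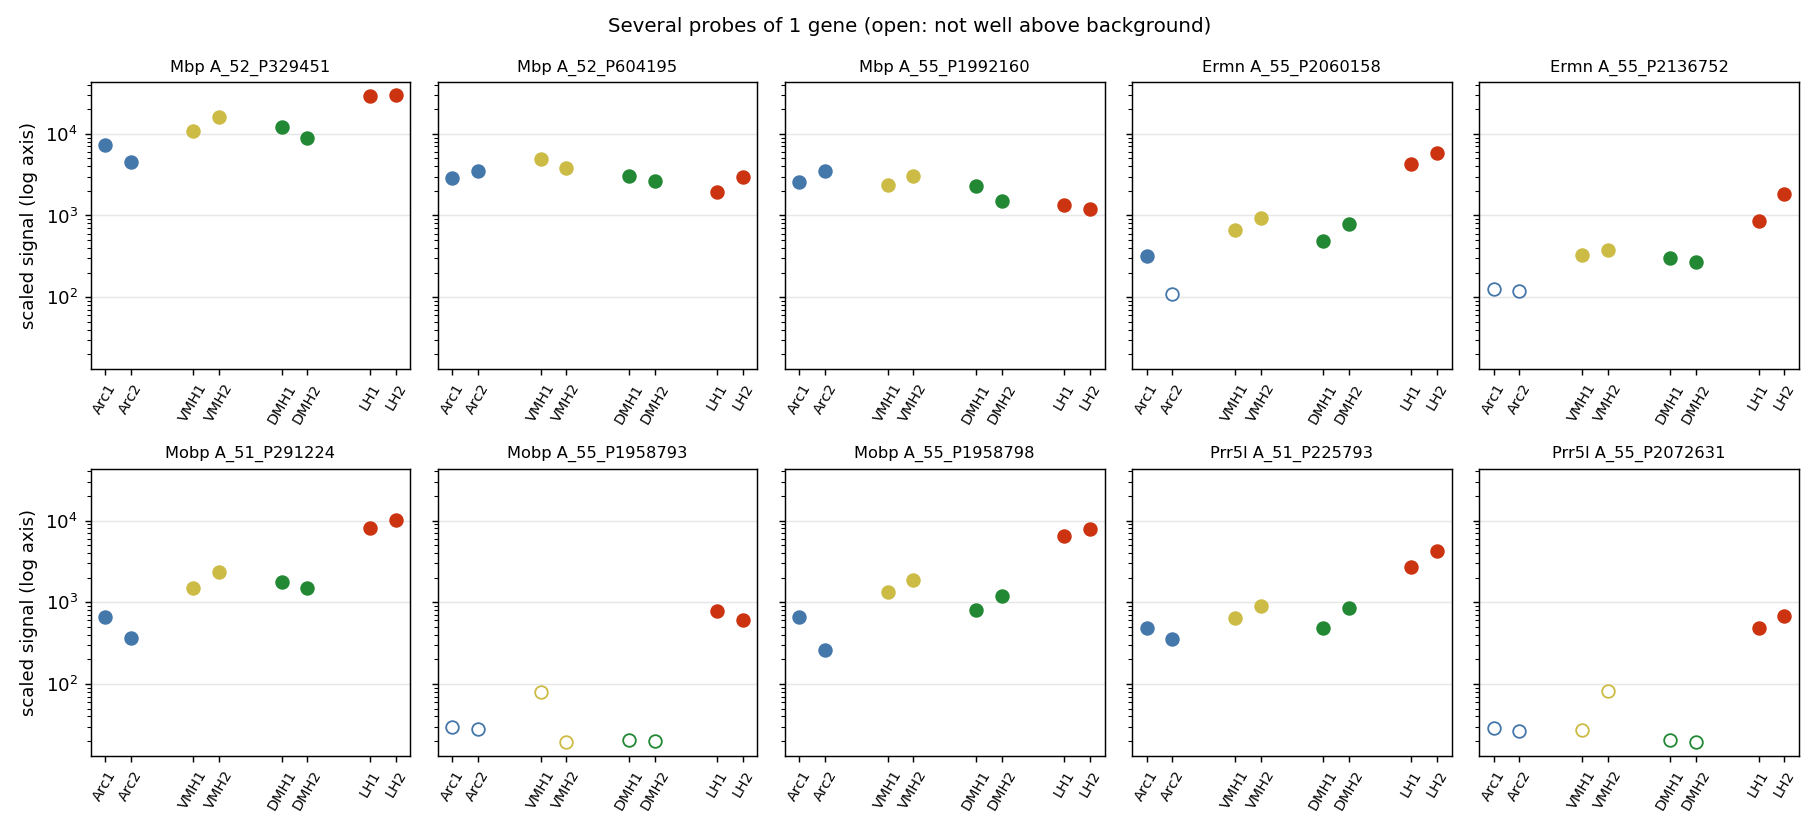
Scaled signal (log axis, the same in all panels) on each array for the probes of *Mbp*, *Ermn*, *Mobp*, and *Prr5l*, with open points where the probe was not well above background. *Mbp* A_52_P329451 is highest in the LH and *Mbp* A_55_P1992160 lowest there, and the single-nucleus probes of *Mobp* and *Prr5l* have filled points in the LH only.

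Oligodendrocyte genes outside the 38 were counted in the same way. Of 24 tested probes for 19 such genes, 18 were higher in the LH than the mean of the other nuclei (background 3.89%). None was lower (background 2.45%), but 1 with limma was lower at an unadjusted p under 0.05, that of *Efnb3*, named after its value was seen. The median was 1.78. Of the 18, 3 were measured on both arrays of the LH alone, so that they passed the filter through the LH and had to be higher there. Of 13 tested probes for enzymes that supply sterols and fatty acids, 1 was higher (background 3.89%), and the median was 0.59. The higher probe belonged to *Elovl1*, an elongase of very long fatty acids (1.70), whose other probe was not called with limma (1.22, adjusted p = 0.069).

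Markers of other cell types were counted as well. Against the mean of the other nuclei, 2 of 14 astrocyte probes were higher (background 3.89%). These were the probe of *S100b* (0.88), which oligodendrocytes also express, and a probe of *Slc1a2* (0.97). The other *Slc1a2* probes were not called with limma (0.74, adjusted p = 0.108, and 0.13, adjusted p = 0.794). The summed signal of the astrocyte genes was 113400 to 122900 in the LH, 52210 to 61520 in the Arc, 83390 to 83590 in the VMH, and 78360 to 79500 in the DMH. *Gfap* was instead highest in the Arc. Its brightest probe had 3735 and 6337 in the Arc, 1228 and 1284 in the VMH, 2125 and 2377 in the DMH, and 2412 and 3109 in the LH. With limma, 2 astrocyte probes, both of *Gfap*, were lower in the VMH than in the Arc (adjusted p = 0.0124 and 0.0152), and 2 others were higher. Of 7 endothelial probes, 1 was higher (*Flt1*, 1.30), and sums were 7508 to 8611 in the LH against 3920 to 7371 elsewhere. With limma, 0 of 8 microglial, 0 of 4 mural, and 0 of 10 neuronal probes passed, while 4, 2, and 1 were higher and 1 microglial probe was lower at an unadjusted p under 0.05. By the F-test without moderation over the 4 nuclei, 0 of these probes passed after adjustment. By limma's F-test, 3 of the 10 neuronal probes did (background 8.34%). Of the neuronal probes, 2 exceeded the Arc in the LH with limma (background 6.02%). These were probes of *Rbfox3* (1.22, adjusted p = 0.0275) and *Syt1* (1.23, adjusted p = 0.0211). A further count was 3, all of *Rbfox3*, higher in the VMH than in the Arc (background 3.52%). Of the astrocyte probes, 5 exceeded the Arc in the LH (background 6.02%). Of 5 tanycyte and ependymal probes, 3 were lower in the LH (background 2.45%). The sums of these genes were 4794 to 4984 in the Arc, 1125 to 1349 in the LH, and 1326 to 1821 in the VMH and DMH. No marker was at exactly 0 on any array, since low signals were replaced by a minimum.

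Neurofilaments, the filaments of large axons, moved with the LH as well. Of 4 probes, 3 were higher against the mean of the other nuclei (background 3.89%), *Nefm* by 2.05 and *Nefh* by 1.70 and 1.60. The sums of *Nefl*, *Nefm*, and *Nefh* were 3592 and 4941 in the Arc, 15730 and 15620 in the VMH, 5848 and 7189 in the DMH, and 13950 and 22140 in the LH, so that the LH and VMH overlapped. That overlap came from *Nefl*, while both LH arrays were above both VMH arrays for *Nefm* and for both probes of *Nefh*. The part of neurons, astrocytes, vessels, and axons in the differences of the oligodendrocyte genes was not tested.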

How the data were processed

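The 8 arrays measured RNA of 4 nuclei of the hypothalamus from 2 mice. The deposited intensity of each spot came from Agilent Feature Extraction (version 10.7.3.1 in the file headers, 11.5.1.1 in the submitters' processing notes), after subtraction of background and spatial trend, and with a minimum in place of low values. RNA was amplified before labeling (WTA2), which can change the ratio of transcripts. The dye is Cy3 by the labels and Cy5 by the methods. Signals are those of the red channel. A deposited table of the series holds these intensities as means over spots.

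Outlier spots were left out, repeated spots were averaged, every array was scaled by its 75th percentile (divisors with a geometric mean of 1), and log2 was taken. Of 28390 probes with a RefSeq accession, 26762 (94.3%) were named through GRCm38.p6. The 28896 probes measured on both arrays of 1 or more nuclei entered a linear model of the 4 nucleus means, with limma 3.58.1 in R 4.3.3 (4 residual and 3.02 prior degrees of freedom). Benjamini-Hochberg adjustment covered all these probes, and the threshold was 0.05. Between 47.1% and 52.7% of spots were well above background, and 0 were saturated. Fold bounds set the mean log2 signal of the brighter nucleus against the lowest measured signal of each array of the dimmer one. Where the probe's own signal on such an array was above that lowest measured signal, its own signal was used. The median log2 differences over all probes are the reference for the members, and no set test was run. The number of arrays limits the precision.

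The members, lists, and tests were chosen with earlier results of these data known. The genes given with all values are those of the precursor and committed stages, the transcription factors, *Mbp*, *Mag*, *Mog*, *Mobp*, *Mal*, *Cnp*, and *Cldn11*, and the 5 largest and 3 lowest LH differences among the other mature genes. Other genes have a range or a sentence, except *Lpar1*, chosen after its values were seen. Probes of a gene disagree where their LH differences have opposite signs with 1 called, are more than 1 apart on the log2 scale, or where 1 is measured in a nucleus and another on no array. The analysis was checked on simulated data. Alternatives were no scaling, quantile normalization, normexp with an offset of 50, the deposited table, outlier spots kept, no filter or a filter on all 8 arrays, a replicate block, dim signals raised, trended and robust moderation, the methods' test, a fit of only the nuclei compared, and leaving out each array.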

Additional observations from a re-analysis of the deposited data

How the results depend on the processing

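The count of 37 member probes higher in the LH than the mean of the other nuclei was 26 with the filter on all 8 arrays, where fewer probes were tested, and 34 to 40 under the other alternatives (34 to 37 with 1 array left out). The count of 38 probes that differed among the nuclei was 28 to 41, 29 to 38 with 1 array left out, and 4 by the methods' test. The count of probes higher in the LH than in each nucleus (27) was 6 without scaling, 9 without the filter, 0 by the methods' test, and 0 to 26 with 1 array left out, and the count for the LH and DMH (27) was 6, 9, 0, and 0 to 28, and 3 when only these nuclei were fitted. The methods' test called 1 probe for the LH and Arc (31 to 40 with 1 array left out) and 0 for the other pairs. For the LH and VMH (35), the fit of these nuclei gave 18, and leaving out 1 array 6 to 35. For the VMH and Arc (10), trended and robust moderation gave 20, and leaving out 1 array 2 to 15. For the DMH and Arc (2), the counts were 6 without scaling, 1 without the filter, 6 with trended and robust moderation, 5 when only these nuclei were fitted, and 1 to 4 with 1 array left out. For the DMH and VMH (2), each of no scaling, no filter, and the fit of these nuclei gave 1, and leaving out 1 array 1 to 2. Where an array was left out, the other array of that nucleus was assumed to vary like the rest. The cause was not tested.

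Arrays with the same number in different nuclei deviated together with correlations of -0.03 to 0.26, which was not enough to take the numbers as pairs. The numbers also mark the rows of the slide, and whether they mark a mouse is not stated. With the replicate block, the counts were 37 for the LH against the mean of the others, 37 among the nuclei, 13 for the LH against each nucleus, 13 for the LH and DMH, 1 for the DMH and Arc, and 1 for the DMH and VMH.

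For single probes, the LH difference of *Gamt* (0.03) was -0.0617 without scaling, -0.0466 with quantile normalization, and -0.0495 to 0.109 with 1 array left out, below 0 without Arc2, VMH1, DMH1, or LH2. *Olig1* was not called without scaling, with quantile normalization, without the filter, or with the block, and *Olig2* was not called without scaling or without the filter. Over all named probes, 617 values under alternatives kept their side of the threshold, 19 lost it, 15 gained it, and 6, all of *Gamt*, changed sign. Without scaling, the median of all probes moved from -0.02 to -0.11 for the LH against the others and from -0.02 to 0.46 for the DMH against the Arc.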
